A study of Mus musculus with 6 samples.

Results

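The 6 hippocampus libraries of this series fell into 2 sets by their level of Prnp, the gene of the cellular prion protein, and App, the gene of the amyloid precursor protein. The libraries were chosen by Prnp FPKM, the measured value that defines the sets. A library with more than 300 FPKM (fragments per kilobase of transcript and per 1000000 fragments) was placed above, and the others below. Above were the library labelled WT replicate 3 and those labelled APP/PS1 replicates 1 and 3, and below were those labelled WT replicates 1 and 2 and APP/PS1 replicate 2. Each set held 3 of the 6 libraries of the series. All came from mouse hippocampus at 6 months of age, of which 3 carry the label wild type (WT) and 3 the label APP/PS1, a mouse that expresses APP695swe, a mutant form of the amyloid precursor protein, and PS1-dE9. The labels give no sex, litter, batch or strain, do not say which promoter drives the transgenes, and do not say whether replicates are separate animals. The sets cut across the labels, since each holds libraries of both.

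Because the libraries were sorted by a value measured in them, the sets are not groups of the study. Every difference between them is a description and carries no p-value, Prnp and App themselves support nothing, and no genotype was assigned to any library from its values. Tests are given for the deposited labels alone.

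Prnp encodes a membrane-anchored glycoprotein that is abundant in neurons, and misfolded forms of it cause prion disease. App encodes the membrane protein from which the beta-secretase Bace1 and the gamma-secretase complex release amyloid beta, while the alpha-secretase Adam10 cuts within the amyloid beta sequence. In widely used mice with this pair of transgenes, both are driven by the promoter of the mouse prion protein gene.

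Gene values were deposited for 15639 rows, and 13700 genes reached at least 1 FPKM in at least 3 libraries. The FPKM of a library added up to 182355 to 185217, and the number of reads behind the gene values is unknown. Reads over back-splice junctions were deposited for 2246 circular RNAs (circRNAs) and totalled between 13998 and 19584 per library, the lowest total being that of the library labelled WT replicate 1. All 10 dentate granule cell markers, all 6 CA1 markers and 10 of 11 markers of CA2 and CA3 passed the filter of 1 FPKM. So did all 6 neocortex, all 18 choroid plexus, 9 of 11 thalamus and 5 of 7 striatum markers. Passing the filter therefore does not single out hippocampal neurons. Mitochondrially encoded genes took 9.30%, 8.87% and 9.31% of summed FPKM in WT-labelled replicates 1 to 3, and 10.3%, 9.70% and 11.3% in APP/PS1-labelled replicates 1 to 3. Over all genes tested, the root mean square difference between a pair of libraries had a median of 0.247 log2 units for the 6 pairs within a set and 0.258 for the 9 pairs across the sets, with ranges of 0.234 to 0.274 and 0.225 to 0.269. The ranges of the pairs within and across the sets thus overlapped.

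Prnp stood at 188, 181 and 457 FPKM in WT-labelled replicates 1 to 3, and at 472, 199 and 464 FPKM in APP/PS1-labelled replicates 1 to 3. The highest library below the threshold was that labelled APP/PS1 replicate 2, and the lowest above it was that labelled WT replicate 3. App followed the same order of sets, with 69.8, 68.5 and 71.0 FPKM below the threshold and 146, 153 and 166 FPKM above it. Set against the labels, the library labelled WT replicate 3 lay near the 2 high libraries labelled APP/PS1 in both genes, and the library labelled APP/PS1 replicate 2 lay near the other libraries labelled WT. Between the labels, an exact two-sided permutation test gave p = 0.2 for Prnp and p = 0.2 for App, where the smallest p that 3 against 3 libraries allow is 0.1.

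Values from here on are given by set, below the threshold for the libraries labelled WT replicate 1, WT replicate 2 and APP/PS1 replicate 2, and above it for those labelled WT replicate 3, APP/PS1 replicate 1 and replicate 3, in that order. Sprn, which encodes Shadoo, a smaller relative of the prion protein, was at 41.6, 39.9 and 41.4 FPKM below the threshold and 42.1, 39.8 and 38.4 FPKM above it, so the sets overlapped. The bar plots of single genes by library show these 3 genes beside others described here.

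**Figure D1:**
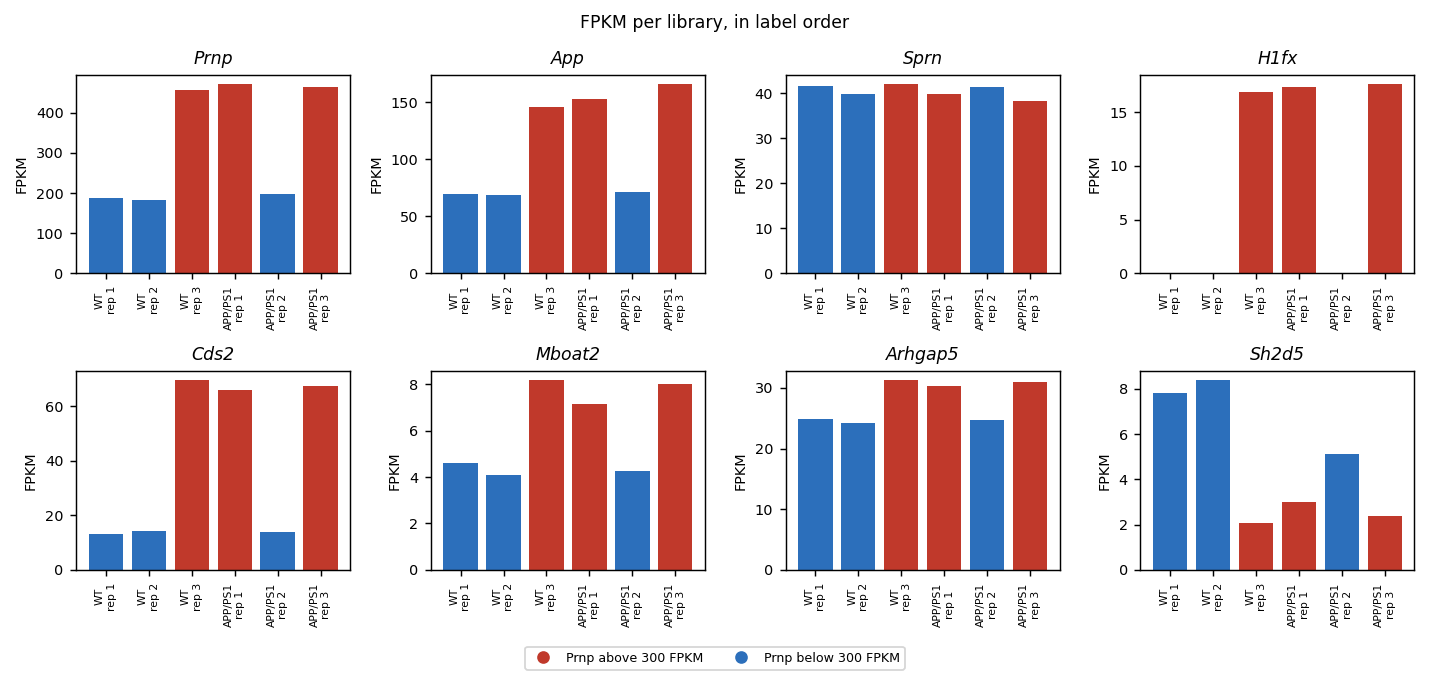
FPKM (y axes, each from 0) of 8 genes in each of the 6 libraries (x axes, in label order), red for libraries with more than 300 FPKM of Prnp and blue for those with less. Prnp and App, by which the sets were recognised, and H1fx, Cds2, Mboat2 and Arhgap5 are higher in all 3 red libraries, Sh2d5 is lower in them, and Sprn overlaps.

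Across the 13700 genes, a gene was counted as separated when all 3 libraries of one set lay beyond all 3 of the other and the difference of their mean log2(FPKM + 1) was at least 0.25. By this rule 169 genes (1.23%) were higher in the libraries above the Prnp threshold and 159 genes (1.16%) were lower, and the sets did not overlap, at any size of difference, for 936 (6.83%) and 767 (5.6%). The median difference over all genes was 0.00 log2 units, and the middle 90% lay between -0.20 and 0.20. Few genes had a wide space between the sets. The gap, taken from the nearest library of one set to the nearest of the other, was at least 1 log2 unit for 4 genes, H1fx, Cds2, Prnp and App, and at least 0.5 for 8. Prnp and App, by which the sets were recognised, are in both counts and among the 169 higher genes, and are not evidence. Apart from them, only H1fx and Cds2 had a gap of at least 1. When the libraries were arranged by label, the gap was at least 1 for 2 genes and at least 0.5 for 9.

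**Figure D2:**
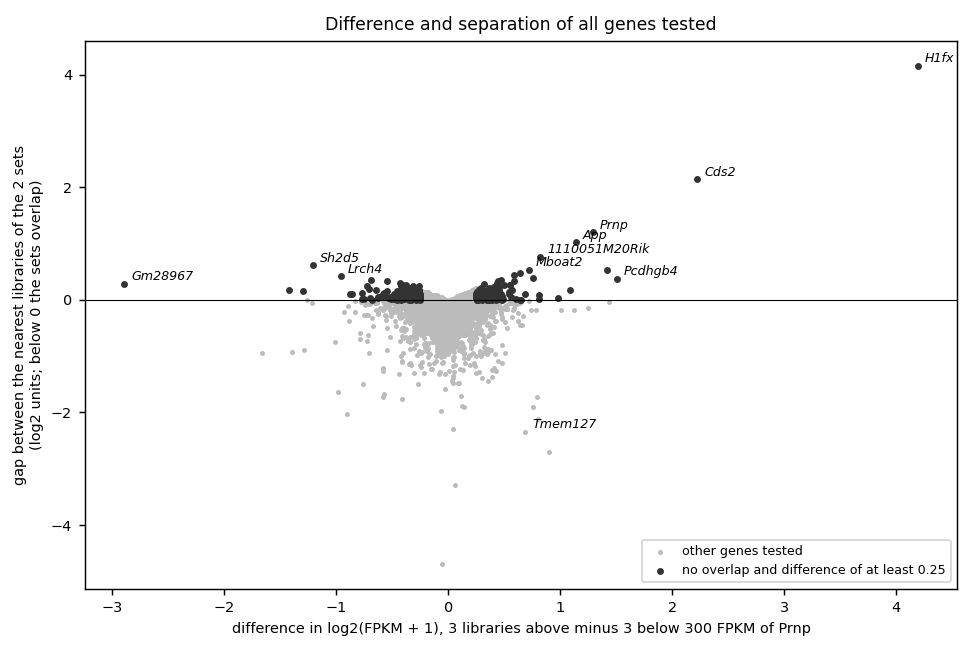
Each point is 1 of 13700 genes; the x axis is the difference in mean log2(FPKM + 1) between the 3 libraries above and the 3 below 300 FPKM of Prnp, and the y axis is the gap between the nearest libraries of the sets in log2 units. H1fx, Cds2, Prnp and App are the 4 genes with a gap of at least 1, and the sets were recognised by Prnp and App. The place of H1fx depends on the pseudocount because it is listed at 0 in 3 libraries. Tmem127, which differed between the labels, has overlapping sets.

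H1fx, which encodes a linker histone of the H1 family that binds DNA between nucleosomes, was listed at 0 in the libraries labelled WT replicate 1, WT replicate 2 and APP/PS1 replicate 2. In the other 3 libraries, which lie above the threshold, it was at 16.9, 17.3 and 17.6 FPKM. No fold is given against a value listed at 0, and whether 0 stands for no reads or for a value that was not estimated was not tested. The gene lies on chromosome 6 in the RefSeq gene table of the GRCm38 build. Its nearest tested neighbours on either side, Hmces and Rab7, had overlapping sets. Hmces ran from 3.39 to 4.13 FPKM and Rab7 from 41.7 to 60.4 FPKM.

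Cds2 encodes a CDP-diacylglycerol synthase, an enzyme of the endoplasmic reticulum that makes the precursor of phosphatidylinositol. It was at 13.05, 14.1 and 13.8 FPKM below the threshold and 69.5, 66.0 and 67.2 FPKM above it. The 3 low values were close together, and so were the 3 high ones. The difference was 2.22 on the log2(FPKM + 1) scale with a gap of 2.15, wider than the gap of Prnp (1.199) or App (1.03). The library labelled WT replicate 3 was 2.27 log2 units above the mean of the other libraries of its label, and the libraries labelled APP/PS1 replicates 1 and 3 were on average 2.19 above replicate 2. In the limma test of the labels, H1fx had an adjusted p of 0.93 and Cds2 of 0.94, beside 0.92 for Prnp and 0.91 for App.

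Cds2 lies on chromosome 2 near Prnp, with 4 tested genes between them in the gene order of GRCm38. None of the 4 was separated. Rassf2, Slc23a2 and Tmem230 had overlapping sets. Pcna, which encodes the sliding clamp of DNA replication, was at 7.65, 8.02 and 8.28 FPKM below the threshold and 10.004, 8.29 and 10.3 FPKM above it, a difference of 0.22 log2 units, with almost no space between the sets. On the far side of Cds2, Gpcpd1 had no overlap but differed by 0.13, and Chgb, the gene of the granin chromogranin B, ran from 121 to 153 FPKM with overlap. Around App, on chromosome 16, the nearest tested genes Gabpa and Cyyr1 differed by 0.12 and 0.09 log2 units. These neighbours were looked up after the values of the 4 genes had been seen.

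The share of separated genes differed between chromosomes, which was not tested. Chromosome 2 held 26 of the 169 higher genes, 2.58% of its 1007 tested genes, against 0.256% on chromosome 16 and 2.15% on chromosome 18 as the lowest and highest of the other autosomes. These counts include Prnp among the 26 on chromosome 2 and App as the 1 on chromosome 16, by which the sets were recognised and which are not evidence. Of the 26, 16 lay in a cluster of zinc finger genes near the far end of chromosome 2, between Gm14440 and Gm14326. Genes of this kind encode DNA-binding proteins with repeated C2H2 zinc fingers, and many such proteins carry a KRAB domain and silence transposable elements. The cluster was chosen after the values had been seen. The genes at both ends of the span were themselves separated, so the shares given for the cluster depend on where it was cut. The RefSeq table has 62 genes in this span, of which 30 were in the gene table, and all 30 were tested. Not all are annotated as protein-coding. Among the 16 higher ones, Zfp968-ps, Gm14412 and Gm14418 are annotated as pseudogenes, Gm14419 as a miscellaneous RNA and Gm14403 as a long non-coding RNA.

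Of the 30 tested genes, 28 had a difference above 0. Upward, 16 (53.3%) were separated, beside 1.23% of all genes, and downward 0, beside 1.16%. For 22 of the 30 the sets did not overlap, with the libraries above the threshold higher, beside 6.83% of all genes. The median difference was 0.29 log2 units, with a range of -0.04 to 0.64, against 0.00 over all genes and 0.03 for the same 30 genes between the labels. On the rest of chromosome 2, 10 of 977 tested genes (1.02%) were separated upward, Prnp among them. Centred on the mean of the 6 libraries, the mean of the 30 genes was -0.15, -0.07 and 0.18 log2 units in WT-labelled replicates 1 to 3, and 0.04, -0.22 and 0.22 in APP/PS1-labelled replicates 1 to 3. Summed over the 30 genes, FPKM came to 86.2, 88.4, 110 and 103, 73.4, 113 in the same order. The library labelled APP/PS1 replicate 2 was the lowest and that labelled APP/PS1 replicate 3 the highest.

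**Figure D3:**
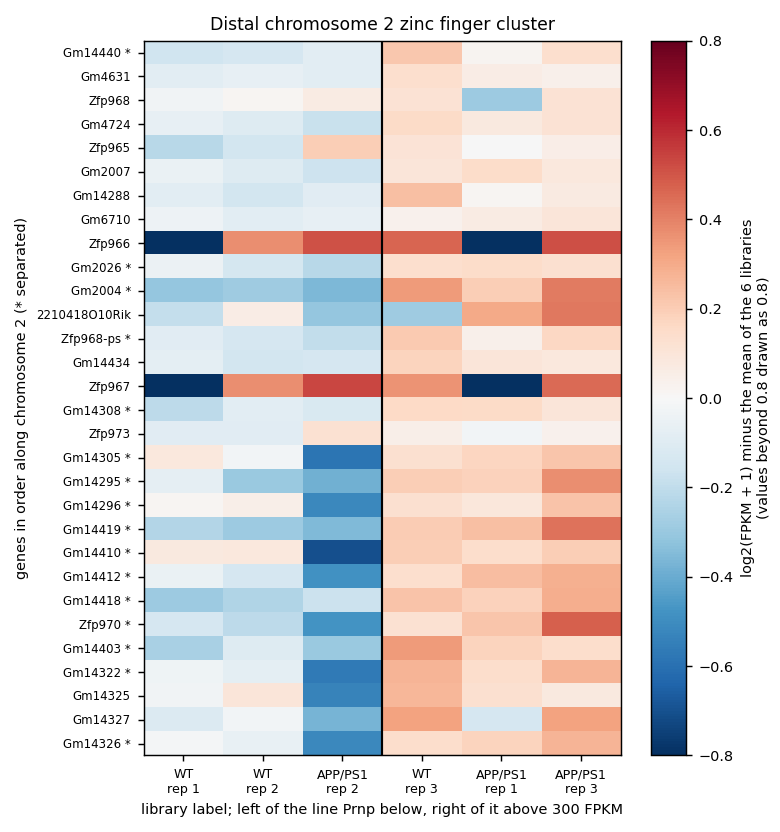
Rows are the 30 tested genes of the chromosome 2 zinc finger cluster in their order along the chromosome, columns are the 6 libraries with the 3 below the Prnp threshold to the left of the line, and colour is log2(FPKM + 1) minus the mean of the 6 libraries, with values beyond 0.8 drawn as 0.8. An asterisk marks the 16 separated genes, and Zfp966 and Zfp967 are listed at 0 in the libraries labelled WT replicate 1 and APP/PS1 replicate 1.

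Zfp970 was one of the separated genes, with 3.94, 3.69 and 2.89 FPKM below the threshold and 4.90, 5.31 and 6.56 FPKM above it. The difference was 0.55 log2 units, 0.29 within the WT label and 0.83 within the APP/PS1 label. Gm14295 was at 4.14, 3.41 and 3.15 FPKM below the threshold and 5.21, 5.14 and 5.99 FPKM above it, a difference of 0.50. Gm2004 had the widest difference of the cluster at 0.64 log2 units, from 0.740, 0.775 and 0.682 FPKM below the threshold and 1.74, 1.48 and 1.88 FPKM above it. In some separated genes the library labelled APP/PS1 replicate 2 set most of the difference. Gm14305 was at 8.01, 7.40 and 4.69 FPKM below the threshold and 8.30, 8.59 and 8.91 FPKM above it. Its difference was 0.10 within the WT label and 0.78 within the APP/PS1 label. Gm14296 (0.10 and 0.67) and Gm14410 (0.12 and 0.87) were uneven in the same way, whereas Gm14440 differed more within the WT label (0.36 and 0.17). Zfp973, in the same cluster, was at 2.55, 2.55 and 3.13 FPKM below the threshold and 2.92, 2.73 and 2.87 FPKM above it, with overlapping sets. Zfp966 and Zfp967 followed neither sets nor labels. Both were listed at 0 in the libraries labelled WT replicate 1 and APP/PS1 replicate 1 and ran from 1.33 to 1.73 FPKM in the other 4. Genes of this cluster are near-identical copies of each other, so how reads were split between them is uncertain for every member.

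The copies are alike before their start sites as well, and 4 of these upstream sequences are shown because 11 of the 16 separated genes had an entry in the RefSeq promoter table (GRCm38.p6) and all 11 held the same run of 54 bases. The run is in capitals, each sequence is the 250 bases before the annotated start, 5′ to 3′ on the strand of the gene, and the fourth gene, Zfp973, is the one of the 4 that was not separated.
Gm2004, chr2:176153423-176153672, minus strand: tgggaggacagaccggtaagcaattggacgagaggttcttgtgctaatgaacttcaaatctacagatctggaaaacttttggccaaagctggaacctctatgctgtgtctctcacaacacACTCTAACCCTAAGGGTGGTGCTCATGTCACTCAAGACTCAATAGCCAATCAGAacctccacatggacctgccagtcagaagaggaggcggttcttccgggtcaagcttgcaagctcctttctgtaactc
Gm14295, chr2:176798350-176798599, plus strand: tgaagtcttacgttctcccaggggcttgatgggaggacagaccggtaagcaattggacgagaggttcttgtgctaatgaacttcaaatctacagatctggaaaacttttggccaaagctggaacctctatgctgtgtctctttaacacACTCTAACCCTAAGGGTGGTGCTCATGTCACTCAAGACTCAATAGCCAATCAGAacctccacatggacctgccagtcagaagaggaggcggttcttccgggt
Zfp970, chr2:177464492-177464741, plus strand: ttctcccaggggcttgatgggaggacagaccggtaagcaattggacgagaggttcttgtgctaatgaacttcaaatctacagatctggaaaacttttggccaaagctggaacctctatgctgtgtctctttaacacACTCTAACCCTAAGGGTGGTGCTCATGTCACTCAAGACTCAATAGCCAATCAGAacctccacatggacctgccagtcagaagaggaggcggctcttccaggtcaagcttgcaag
Zfp973, chr2:176670272-176670521, plus strand: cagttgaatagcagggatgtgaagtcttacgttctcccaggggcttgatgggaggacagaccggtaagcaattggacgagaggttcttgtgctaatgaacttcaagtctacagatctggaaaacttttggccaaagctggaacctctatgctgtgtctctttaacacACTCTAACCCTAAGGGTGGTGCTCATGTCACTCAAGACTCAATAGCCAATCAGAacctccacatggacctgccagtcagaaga

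The run was the longest stretch common to all 11 upstream sequences. It was found on the strand of the gene in 28 of 32851 upstream windows of the same length (0.0852%), belonging to 26 genes, all on chromosome 2 and 24 of them in the cluster, and its reverse complement was found in 0 windows. All 26 genes were tested. Of them, 11 were separated upward, beside 1.23% of all genes. These are the 11 from which the run was taken, so this count was fixed by the choice of the run. For 17, the same 11 among them, the sets did not overlap, with the libraries above the threshold higher, beside 6.83% of all genes. Neither share is a result about the run. The run was thus shared by separated and overlapping members alike. Its carriers outside the cluster, Zfp971 and Gm14391, differed by 0.35 and 0.07 log2 units with overlapping sets. Pairwise, the 11 upstream sequences were 92.3% to 100% identical over 165 to 250 aligned bases, with a median of 95.4% over 55 pairs. The run contains the letters CCAAT, the core of the CCAAT box, a common promoter element. Searched on both strands, CCAAT or its reverse complement ATTGG stood in 33.8% of all upstream windows. A match of letters is not evidence of a bound factor. The run was searched for after the values had been seen.

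Outside this cluster, the higher genes with the widest gaps included a lipid enzyme, a kinase subunit and a GTPase regulator. Mboat2, a membrane-bound acyltransferase that remodels phospholipids, was at 4.62, 4.11 and 4.27 FPKM below the threshold and 8.18, 7.14 and 8.02 FPKM above it, a difference of 0.72 log2 units. Csnk2b, the regulatory subunit of casein kinase 2, was at 16.1, 15.3 and 16.0 FPKM below the threshold and 23.9, 20.9 and 20.7 FPKM above it, a difference of 0.44. Arhgap5, which encodes a GTPase-activating protein, was at 24.9, 24.1 and 24.8 FPKM below the threshold and 31.2, 30.3 and 31.0 FPKM above it. Its difference of 0.31 was alike within the labels, 0.34 for WT and 0.30 for APP/PS1.

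Among further genes higher in the libraries above the threshold, Pcdhgb4, a gamma protocadherin of the cell surface, had a large difference of 1.504 but an uneven one. Its values were 10.2, 3.58 and 11.3 FPKM below the threshold and 14.9, 28.6 and 29.6 FPKM above it, so the 2 low libraries labelled WT also differed from each other, and gamma protocadherins share their last exons, which leaves the assignment of reads uncertain. Fam241b (0.59), Zscan2 (0.55) and Zfp959 (0.44), the last pair being zinc finger genes, stayed below 4 FPKM in every library. Chosen after its values were seen, 1110051M20Rik was at 6.39, 6.63 and 6.35 FPKM below the threshold and 12.4, 12.1 and 11.97 FPKM above it. Its gap of 0.77 was the fifth widest of all genes.

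Genes lower in the libraries above the threshold had narrower gaps. Sh2d5, which encodes a protein with an SH2 domain, had the widest gap in this direction, 0.62. It was at 7.80, 8.38 and 5.13 FPKM below the threshold and 2.05, 2.996 and 2.36 FPKM above it, a difference of -1.21 log2 units. The difference was -1.58 within the WT label and -0.74 within the APP/PS1 label. Lrch4, with leucine-rich repeats, was at 2.03, 2.72 and 3.90 FPKM below the threshold and 0.627, 1.27 and 1.02 FPKM above it. Prkab2, a regulatory subunit of the energy-sensing kinase AMPK, was at 5.84, 7.57 and 9.04 FPKM below the threshold and 4.18, 4.34 and 4.10 FPKM above it, a difference of -0.69.

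Further genes in this direction included those of secreted and surface proteins. Ctgf, a matrix-associated growth factor, was at 8.05, 7.15 and 7.10 FPKM below the threshold and 5.26, 5.43 and 3.77 FPKM above it. Igfbp7, an insulin-like growth factor binding protein of vessels, was at 11.1, 11.05 and 12.3 FPKM below the threshold and 7.90, 8.77 and 8.12 FPKM above it. The differences were -0.55 and -0.43 log2 units. Entpd1, an ectonucleotidase that degrades extracellular ATP, differed by -0.35 and was between 1.18 and 2.11 FPKM. Calhm2, a subunit of an ATP-permeable channel, differed by -0.32, Dand5, a secreted antagonist of TGF-beta family ligands, by -0.26, Wdr86 by -0.34, the transcription factor Hivep3 by -0.71, Arid5a by -0.43 and Lysmd3 by -0.73.

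Genes that process amyloid precursor protein were not separated along with App. Of 20 genes of the APP family, the secretases and their partners, 19 passed the filter on low values and App alone was separated, beside 1.23% of all genes, with a list median of 0.02 log2 units. Bace1, the beta-secretase, was at 16.3, 8.70 and 9.39 FPKM below the threshold and 9.25, 16.0 and 9.76 FPKM above it, high in the first replicate of either label. Adam10 was at 18.9, 18.2 and 20.2 FPKM below the threshold and 21.6, 22.7 and 20.6 FPKM above it, higher in the set above the threshold by 0.17 with hardly any space between the sets. Sorl1, a sorting receptor that binds App, was at 58.2, 54.0 and 50.5 FPKM below the threshold and 48.9, 48.1 and 47.7 FPKM above it, lower by 0.16. Of 13 amyloid clearance and lipid carrier genes tested, 0 were separated.

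Of 16 tested genes of plaque-associated microglia, the cells that gather at amyloid plaques, 2 were separated, both upward and beside 1.23% of all genes, and the median difference was 0.06 log2 units. Cd68, a lysosomal glycoprotein of phagocytes, was at 3.51, 3.72 and 2.86 FPKM below the threshold and 4.20, 4.32 and 5.18 FPKM above it. Tyrobp, the adaptor through which Trem2 signals, was at 7.71, 6.65 and 8.56 FPKM below the threshold and 9.46, 9.04 and 9.69 FPKM above it. Itgax, Clec7a and Gpnmb, which define this microglial state, were not listed, and Cst7 stayed under the filter. Of 13 homeostatic microglial genes 0 were separated, with a median of 0.10. No gene was separated among 6 complement genes, 10 genes of the interferon response and antigen presentation or 20 lysosomal genes. Of 11 astrocyte genes 1 was, upward and beside the same 1.23%, the water channel Aqp4, at 25.6, 24.5 and 28.6 FPKM below the threshold and 35.5, 34.4 and 30.6 FPKM above it.

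Oligodendrocyte genes were higher in the libraries above the threshold. Of 20 genes of oligodendrocytes and myelin, 18 had a difference above 0 and 5 were separated, all upward and beside 1.23% of all genes, with a median of 0.20 log2 units. Mbp, a structural protein of compact myelin, was at 47.9, 42.0 and 63.5 FPKM below the threshold and 72.1, 65.7 and 88.1 FPKM above it, so that the low library labelled APP/PS1 lay close to the high ones. Ugt8a, which makes the myelin lipid galactosylceramide, differed by 0.37, Aspa, an enzyme that splits N-acetylaspartate, by 0.27 and Ermn, a cytoskeletal protein of the myelin sheath, by 0.26. The list mean was -0.08, -0.18 and -0.02 log2 units below the threshold and 0.01, 0.09 and 0.18 above it, and the same genes had a median of 0.17 between the labels. In bulk tissue, fewer cells of a type and less RNA per cell cannot be told apart. Of 4 transcription factors of the lineage, Sox10 differed by 0.19, Myrf by 0.09, Olig1 by -0.09 and Olig2 by -0.08, and none of them was separated.

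Of 29 lists, the library means did not overlap between the sets for 3, namely the prion protein family, which holds Prnp, the oligodendrocyte list and the thalamus list. The thalamus list, whose genes mark tissue next to the hippocampus, had 8 of 9 tested genes above 0, a median of 0.07 and 0 separated genes. The largest of its differences was that of Zic1, at 3.95, 9.39 and 14.2 FPKM below the threshold and 18.5, 9.69 and 10.1 FPKM above it, with overlapping sets. The mean of the thalamus list was -0.15, -0.05 and -0.05 log2 units below the threshold and 0.16, 0.01 and 0.08 above it. Like the oligodendrocyte list it was higher above the threshold, but within each set the 2 lists ordered the libraries differently. Whether thalamic tissue had a part in the oligodendrocyte values was not tested.

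Immediate early genes, which neurons transcribe within minutes of activity, were lower on average in the libraries above the threshold, and their list means did not overlap between the labels, although no member passed the limma test of the labels. All 19 genes had a difference below 0, with a median of -0.56 log2 units between the sets and of -0.72 between the labels, and 0 were separated. Arc, which acts at active synapses, was at 150, 126 and 91.9 FPKM under the WT label and 60.8, 89.2 and 58.8 FPKM under the APP/PS1 label. Fos, part of the transcription factor AP-1, was at 30.9, 25.7 and 32.3 FPKM under the WT label and 12.2, 19.1 and 7.67 FPKM under the APP/PS1 label. The library labelled WT replicate 3 was the highest in Fos, although it lies above the Prnp threshold. The list mean was 0.47, 0.30 and 0.23 log2 units under the WT label and -0.35, -0.06 and -0.60 under the APP/PS1 label.

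Genes of mural cells and of leptomeningeal fibroblasts had their lowest means in APP/PS1-labelled replicates 1 and 3. Of 7 mural genes 1 was separated, downward, with a median of -0.29, of 12 leptomeningeal fibroblast genes 1, downward, with a median of -0.22, of 12 endothelial genes 1, downward, with a median of -0.02, and of 18 choroid plexus genes 1, downward, with a median of -0.11, beside 1.16% of all genes. Myl9, a myosin light chain of smooth muscle, was at 10.6, 7.83 and 8.56 FPKM below the threshold and 7.77, 5.37 and 5.37 FPKM above it. Ly6a, a surface protein of endothelium, was at 4.08, 4.18 and 5.02 FPKM below the threshold and 3.68, 1.66 and 1.55 FPKM above it. In both genes the library labelled WT replicate 3 lay near the set below the threshold. The mural list mean was 0.17, 0.01 and 0.20 log2 units below the threshold and 0.14, -0.23 and -0.30 above it.

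Among neuronal lists, 0 of 21 genes of glutamatergic synapses were separated, with a median of -0.03 log2 units (-0.07 without the library labelled APP/PS1 replicate 2 and -0.05 without replicate 3), and of 6 markers of CA1 and 10 of CA2 and CA3 pyramidal neurons 0 were. Among 10 dentate granule cell genes 1 was separated upward, beside 1.23% of all genes, Stxbp6, a syntaxin-binding protein, at 13.4, 14.1 and 12.9 FPKM below the threshold and 19.2, 16.2 and 15.6 FPKM above it. Among 12 interneuron genes the neuropeptide gene Npy was separated downward by 0.30 log2 units and Calb2, the gene of calretinin, upward by 0.49, 1 gene in either direction beside 1.16% lower and 1.23% higher among all genes. Calb2 was at 13.1, 9.86 and 13.8 FPKM below the threshold and 23.8, 14.0 and 15.8 FPKM above it, so a single library set most of the difference. All 13 mitochondrially encoded genes had a difference above 0, beside 6957 of all 13700 genes. Their median was 0.12 between the sets and 0.20 between the labels, and their list means overlapped between the sets. The mitochondrial share of FPKM gave p = 0.1 between the labels in the exact two-sided permutation test, the smallest p possible. Of the 13 genes 1 was separated upward, beside 1.23% of all genes, mt-Nd6, a subunit of respiratory complex I. It differed by 0.09 under quantile scaling and by 0.246 without the library labelled WT replicate 1, both below the minimum of 0.25, so that it was no longer separated. Among heat shock genes and genes of the unfolded protein response, 18 of 21 were below 0, with a median of -0.09, and 0 were separated. The plot of list means by library shows these lists side by side.

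**Figure D4:**
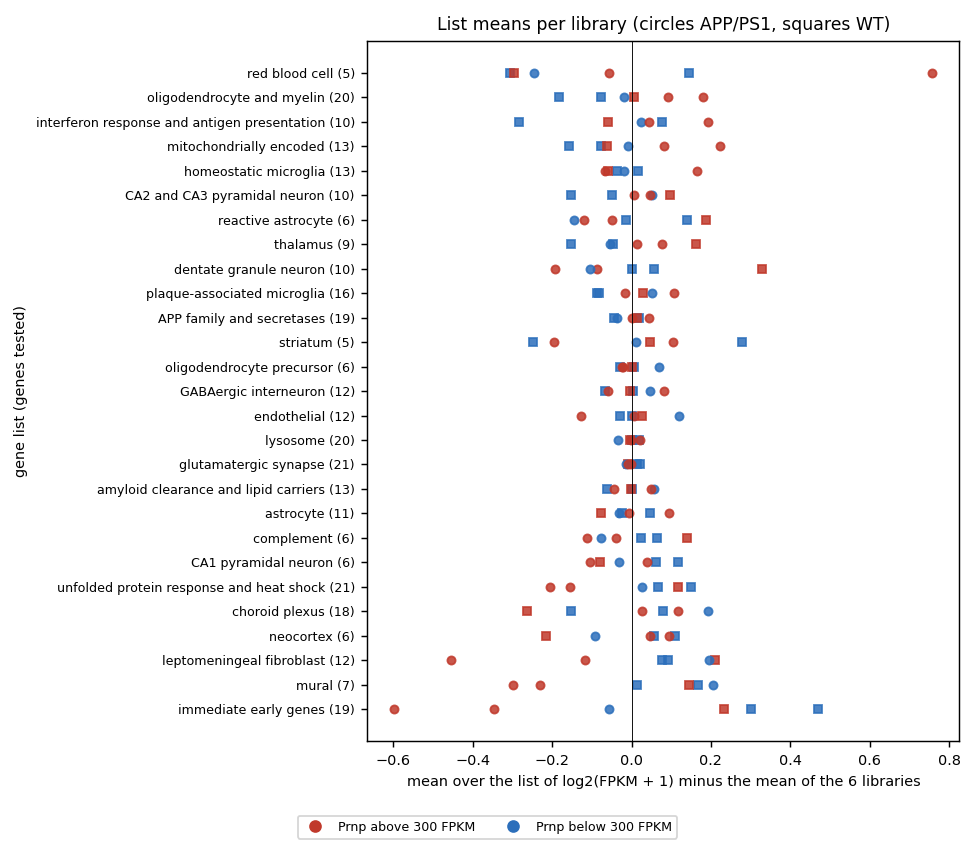
Mean over each gene list of log2(FPKM + 1) minus the mean of the 6 libraries (x axis), with the number of genes tested in brackets, for lists with at least 5 tested genes (y axis, ordered by median difference); circles are libraries labelled APP/PS1, squares those labelled WT, red above and blue below 300 FPKM of Prnp. Red and blue do not overlap for the oligodendrocyte and thalamus lists, and in the immediate early gene list the 3 squares lie to the right of the 3 circles.

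Circular RNAs, made when a splice donor joins an upstream acceptor, were compared between the sets in the same way. A minimum of 2 reads in 3 or more libraries left 2132 circRNAs. Of these, 98 (4.6%) were higher and 104 (4.88%) lower in the libraries above the threshold, without overlap and by at least 0.5 on the scale of log2 CPM (reads per 1000000 circRNA reads). Without the minimum difference, 4.97% were higher and 5.53% lower with no overlap, beside 6.83% and 5.6% of genes. The directions were balanced, and the median difference was 0.02. Of the separated circRNAs, 57 of the higher and 69 of the lower ones had a mean under 5 reads per library, and among the 152 with a mean over 20 reads 7 were higher and 2 lower.

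Circles listed with genome coordinates are named by the gene that spans them, and those given by set had 21 reads or fewer in any library. The Dgkb circle (chr12:38100363-38127383, plus strand) had 0, 0 and 0 reads below the threshold and 10, 5 and 4 reads above it. Its host gene encodes a diacylglycerol kinase. The Stk39 circle (chr2:68307040-68410141, minus strand) had 2, 6 and 3 reads below the threshold and 9, 10 and 11 reads above it, and its host encodes a kinase that controls ion transport. The Pitpnb circle (chr5:111335494-111349574, plus strand) had 0, 2 and 0 reads below the threshold and 5, 12 and 4 reads above it. The host of the last encodes a phosphatidylinositol transfer protein. The Ankrd12 circle (chr17:66037492-66053091, minus strand) had 13, 6 and 15 reads below the threshold and 17, 21 and 21 reads above it, and the sets nearly touched once library size was taken into account.

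In the other direction, the Hebp1 circle (chr6:135152820-135155289, minus strand) had 4, 6 and 2 reads below the threshold and 0, 0 and 0 reads above it. The Gria2 circle (chr3:80726831-80741198, minus strand), from the gene of an AMPA receptor subunit, had 6, 5 and 8 reads below the threshold and 1, 3 and 1 reads above it. Nfib, a transcription factor gene, gave a circle (chr4:82350388-82498769, minus strand) with 9, 15 and 8 reads below the threshold and 6, 5 and 5 reads above it. From Usp25, the gene of a deubiquitinase, came circles of either direction. That at chr16:77071643-77076521 had 1, 1 and 0 reads below the threshold and 7, 2 and 3 above it, and that at chr16:77033902-77037492 had 5, 6 and 2 reads below it and 0, 1 and 0 above it. With counts this low, an order of libraries can turn on 1 or 2 reads.

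**Figure D5:**
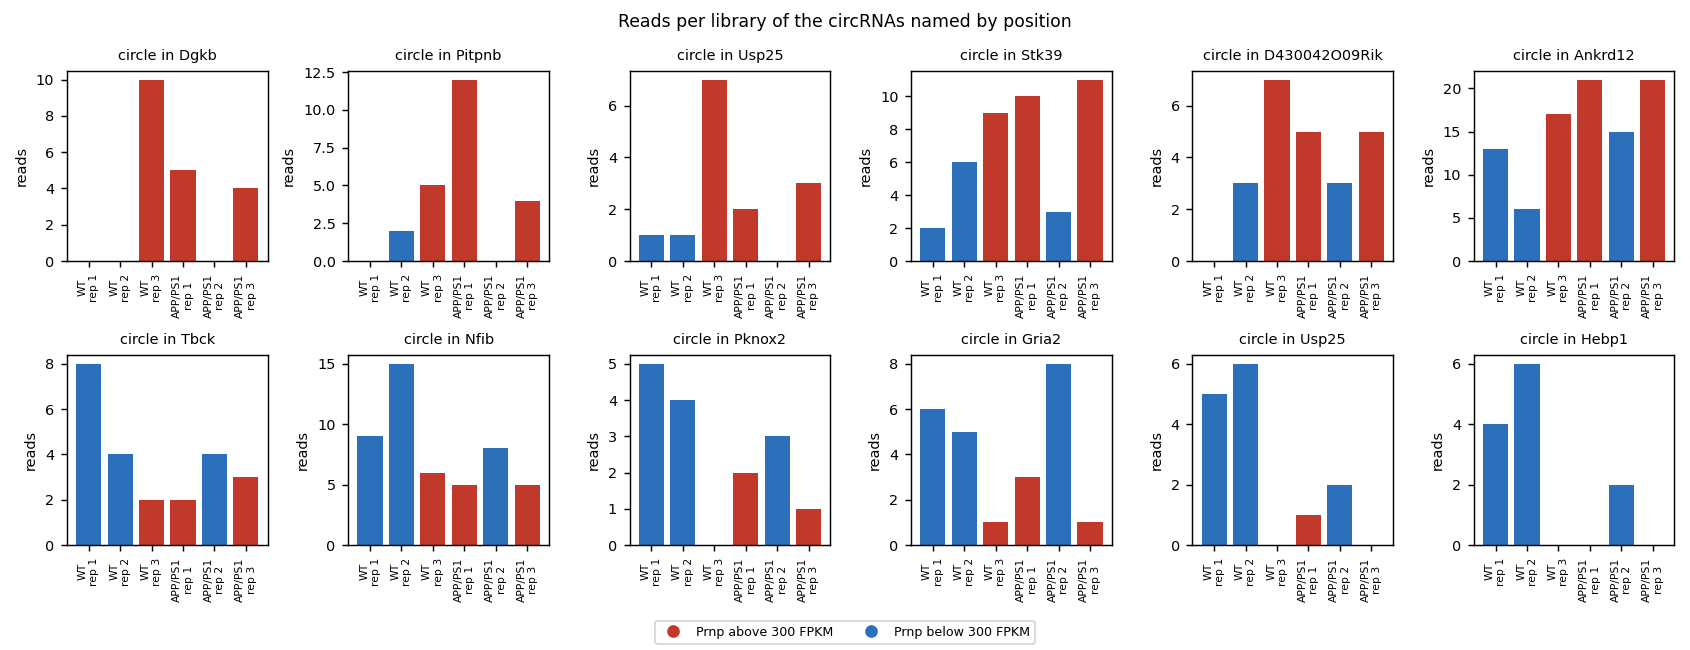
Reads over the back-splice junction (y axes, each from 0 with its own scale) of 12 circRNAs with coordinates in each of the 6 libraries (x axes, in label order), red above and blue below 300 FPKM of Prnp. The upper panels are circles with more reads in the red libraries, such as that of Dgkb with 0 reads in all 3 blue libraries, and the lower panels are circles with fewer.

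Arranged by the deposited labels, limma called 1 gene higher (0.0073%) and 2 lower (0.0146%) in the libraries labelled APP/PS1 at an adjusted p under 0.05, and 916 genes had an unadjusted p under 0.05. Tmem127, an endosomal membrane protein, was at 3.52, 3.57 and 2.93 FPKM under the WT label and 21.1, 21.9 and 21.9 FPKM under the APP/PS1 label, a log2 fold change of 2.39 ± 0.07 (SE, limma adjusted p = 4.58e-05). Cdc42se1, whose product binds the GTPase Cdc42, changed by -1.14 ± 0.07 (SE, limma adjusted p = 0.0021), and Tspan5, a tetraspanin that associates with Adam10, by -1.18 ± 0.08 (SE, limma adjusted p = 0.0071). These genes were selected by the test of the labels, so a split by label follows from that choice. The libraries labelled WT replicate 3 and APP/PS1 replicate 2, which went with the other label in Prnp and App, thus stood with their own here. Cdc42se1 was at 14.7 FPKM in the former and 6.32 FPKM in the latter, and Tspan5 at 17.1 and 6.504 FPKM. Without the library labelled WT replicate 3, limma called 5 genes higher and 6 lower, and without the library labelled APP/PS1 replicate 2, 8 higher and 22 lower. Among circRNAs, the edgeR quasi-likelihood test called 1 higher (0.0469%), the Nme7 circle at chr1:164312852-164403077 (plus strand), and 0 lower (0%), with 113 at an unadjusted p under 0.05; DESeq2 also called 1 higher and 0 lower. That circle had 4 reads in each library labelled WT and 40, 40 and 10 reads in the APP/PS1-labelled ones (edgeR adjusted p = 0.015), and the call was lost when any one of the libraries labelled WT, or that labelled APP/PS1 replicate 2, was left out.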

How the data were processed

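Total RNA of mouse hippocampus was taken up in Trizol and made into libraries with a TruSeq kit, per the labels' protocols. The authors deposited 1 value per gene and library, read here as FPKM because totals stay far below 1000000 and the submitters' processing notes list StringTie. They also list HISAT2, FastQC and mm9, with no roles. The authors deposited whole-number read counts per circRNA. The circRNA caller, and whether counting used strand, are not given in the sources used here. Of 257 circles with coordinates, 253 (98.4%) lay inside a gene of the GRCm38 RefSeq table, against 31.5% and 31.1% after shifts of 1000000 bases either way, so hosts were taken from that table. The other 1989 circles carry a database number only.

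Differences between the sets are differences of mean log2(FPKM + 1), so they understate the change of low genes, or of log2 CPM with TMM factors and a prior count of 2. The sets are defined by a measured value, so no test was run between them. By label, genes were tested with limma 3.58.1 (trend, robust) and circRNAs with edgeR 4.0.16 (quasi-likelihood, TMM), adjusted by Benjamini-Hochberg over all features, and both were tested on simulated data. The labels do not call the libraries separate animals, so these p-values rest on spread that may be technical. The circRNA read counts of every pair of libraries differed by more than sampling noise (chi-square per degree of freedom 1.90 to 2.20), so no library was a copy of another's counts. This does not show whether any libraries came from the same material.

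The threshold, the gene lists and the rules were chosen with earlier results of these data known. The rule names Prnp and App, the 12 separated genes with a symbol and the widest gap in each direction, up to 4 members of each list, and 6 circRNAs with a host in each direction; not all are printed, and some results are not reported here. Of 15639 gene rows, 22 carried names turned into dates and 15275 of 15616 distinct names were found in the reference tables. Chromosomes were known for 12400 of the tested genes (90.5%). Alternatives were a pseudocount of 0.1, other filters, quantile scaling, total reads as the circRNA scale, DESeq2 1.42.0, the replicate number as a block and each library left out in turn. Those for the chromosome 2 cluster were chosen after seeing the data.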

Additional observations from a re-analysis of the deposited data

How the results depend on the processing

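The counts of separated genes depended on the settings, 169 higher and 159 lower as reported. A pseudocount of 0.1 gave 286 higher and 230 lower, a filter of 5 FPKM in at least 3 libraries gave 67 and 63, no filter 199 and 176, and quantile scaling 168 and 170. For circRNAs, 98 higher and 104 lower, a filter of 5 reads in at least 3 libraries gave 61 and 46. Leaving out 1 library at a time gave 257 to 405 genes higher and 231 to 435 lower, 160 to 199 circRNAs higher and 168 to 207 lower, 3 to 10 lists without overlap, and 11 to 20 genes of the chromosome 2 cluster separated upward, the last against 16 as reported. With fewer libraries, sets fail to overlap more often by construction. Without the library labelled WT replicate 3, 43.6% of the separated genes were higher, against 51.5% with all libraries. No reported direction reversed under any alternative run for a separated gene. The pseudocount of 0.1 moved low genes most, for example Gm2004 to 1.11, Lrch4 to -1.48 and Zfp959 to 0.78 log2 units. The list median of the APP family and secretases was between -0.05 and -0.01 without 4 of the libraries, each left out alone, and that of the thalamus list was -0.0049 without the library labelled APP/PS1 replicate 2.

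Between the labels, leaving out 1 library at a time gave 1 to 8 genes higher and 1 to 22 lower in limma, the widest counts without the library labelled APP/PS1 replicate 2. In edgeR it gave 0 to 1 circRNAs higher and 0 to 1 lower. The 0 calls higher came without the library labelled WT replicate 1, 2 or 3 or APP/PS1 replicate 2. Tspan5 had a limma adjusted p of 0.0863 without the library labelled WT replicate 2. Same-numbered libraries of the 2 labels did not deviate together over all genes (r = 0.01, -0.06 and -0.09). Single genes could still follow the number, as Bace1, Zfp966 and Zfp967 did in the first replicate of either label. Whether same-numbered libraries shared a batch or other handling was not tested. With the replicate number as a block, limma called 1 gene higher and 0 lower, Cdc42se1 having an adjusted p of 0.0646 and Tspan5 of 0.151. The reads behind FPKM are unknown, so no precision can be given for low genes such as Gm2004. For circRNAs, 3 reads correspond to at most 214 CPM in any library.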

Other observations

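Some genes had values far apart between libraries that followed the sets and the labels poorly or not at all, and they are given, in the order of the report, as values chosen after they were seen. Rnf24, a RING finger gene that neighbours Prnp, was at 6.24, 0.679 and 7.35 FPKM below the threshold and 6.85, 7.36 and 0.693 FPKM above it. Gm28967 was at 17.2, 237 and 266 FPKM below the threshold and 12.02, 13.6 and 13.9 FPKM above it. The sets did not overlap and the rule counted it as separated downward, although 1 of the 3 libraries below the threshold lay near those above it. Rab43, a small GTPase gene near H1fx, was at 3.98, 4.85 and 4.10 FPKM below the threshold and 0.413, 3.93 and 3.48 FPKM above it. The rule counted it as separated downward, by -0.75 log2 units with a gap of 0.01, and the library labelled WT replicate 3 set most of the difference. Globin genes were highest in the library labelled APP/PS1 replicate 3, where Hba-a2 was at 198 FPKM against 78.6 to 109 FPKM in the other 5.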
